A study of Mus musculus with 9 samples.

Results

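Genes for 6 ligands of the epidermal growth factor (EGF) family, Ereg, Areg, Hbegf, Tgfa, Btc and Nrg1, were followed in macrophages sorted from mouse skin wounds at day 4 and day 14 after injury. The members were taken by symbol, 6 of the 18303 genes in the deposited counts table, and all 6 were measured. All 6 passed the filter on low counts, Btc through the day 14 libraries alone. Both groups were C57BL/6J wild-type mice without treatment, with 4 libraries at day 4 and 5 libraries at day 14. The cells were sorted as CD45+CD11b+F4/80+, that is, leukocytes with 2 surface proteins found on macrophages. No age, number of animals or unwounded skin is given in the labels, and they do not tie libraries to separate animals, so p-values measure only the spread between these libraries, which may be technical.

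These ligands are made as membrane-bound precursors, and cutting by ADAM proteases releases their extracellular EGF-like domain. Epiregulin (Ereg), amphiregulin (Areg), heparin-binding EGF-like growth factor (Hbegf), transforming growth factor alpha (Tgfa) and betacellulin (Btc) bind the EGF receptor, Egfr. Epiregulin, Hbegf and betacellulin also bind Erbb4, and neuregulin 1 (Nrg1) binds Erbb3 and Erbb4 and not Egfr itself, so the name EGF receptor ligand holds for Nrg1 only in the wider sense of the ErbB receptor family. In skin wounds, ligands of this family are known to promote migration and growth of keratinocytes.

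Total estimated counts ranged from 17982633 to 57809918 per library, and 14537 to 16233 genes had at least 1 count. Day 4 replicates 3 and 4 and day 14 replicate 1 are called the 3 deeper libraries, with at least 50162708 counts each, and the other 6 the shallower ones, with at most 27381291, so depth is unevenly spread over the groups. Day 14 replicate 5 lacked the counts of genes from Aplp2 on chromosome 9 onward: 808 of 811 well-counted genes there were at 0, against 0 before that point. All 6 ligand genes lie before it, and genes beyond it were compared without that library. Levels are given as CPM, a gene's counts relative to the total of its library after TMM scaling. Markers of the sort were abundant in both groups. Lyz2, lysozyme of myeloid cells, stood at 10083 ± 540 CPM (SD, n = 4) at day 4 and 10583 ± 799 CPM (n = 5) at day 14, and of 8 macrophage and sort markers 3 were called higher and 3 lower at day 14. Collagen Col3a1 was at 5990 ± 1792 and 3014 ± 645 CPM and S100a9, a gene of the neutrophil list, at 452 ± 306 and 296 ± 317 CPM. Whether these transcripts came from other cell types was not tested.

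Of the 6 ligand genes, 3 were called higher and 2 lower at day 14 by edgeR's quasi-likelihood test with an adjusted p under 0.05. Among all 13296 genes tested, 31.3% were called, 15.2% higher and 16.2% lower. The CPM of the groups did not overlap for 3 ligand genes, Ereg and Nrg1 being lower and Btc higher at day 14. Over all genes tested, 26% did not overlap, 12.2% higher and 13.7% lower. The median log2 fold change was 0.56 over the 6 members and -0.01 over all genes. These counts and this median include Btc, which passed the filter only through the group where it was high, and are given as a description. In sorted bulk RNA, fewer cells of a type and less RNA per cell cannot be told apart.

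**Figure D1:**
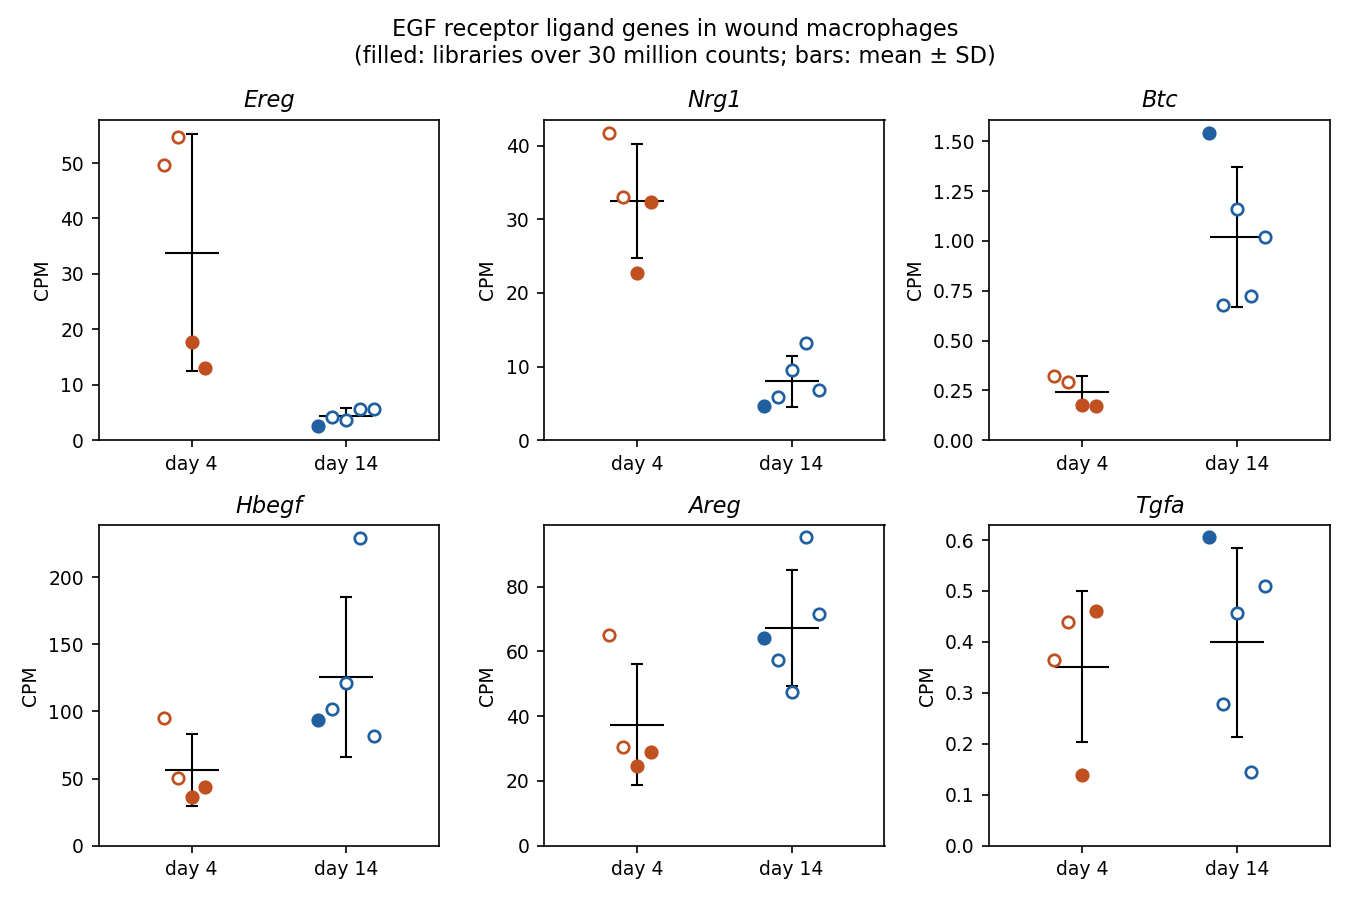
CPM (linear axes from 0) of the 6 ligand genes in each of the 4 day 4 and 5 day 14 libraries, with mean ± SD. Filled points are the 3 deeper libraries. Ereg and Nrg1 separate downward and Btc upward, while the groups overlap for Hbegf, Areg and Tgfa.

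Ereg, Areg and Btc lie together on mouse chromosome 5 in GRCm38, with Ereg at 91074617 to 91093649, Areg at 91139599 to 91148432 and Btc at 91357261 to 91402994. Epgn, the gene of the ligand epigen, lies at 91027517 to 91035212 on the same chromosome, and the 375 kb from its start to the end of Btc hold 5 genes of the counts table. These spans cover whole genes, exons and introns. Of these neighbours on chromosome 5, Ereg was called lower and Areg and Btc were called higher at day 14. The call of Areg was at the threshold (adjusted p = 0.04997, edgeR), and its groups overlap. Btc passed the filter on low counts only through day 14, the group where it was high. The directions of these neighbours are therefore given as a description.

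RefSeq promoter sequences of the build GRCm38.p6 were at hand for Areg, Btc and Tgfa, 3 of the 6 members. Those of Areg and Btc are shown because both genes were called higher, with the limits just given, while Ereg, in the same cluster, was called lower. Each run is the 250 bases before the gene's start, 5′ to 3′ on the gene's strand, and capitals mark the cAMP response element (CRE) TGACGTCA or its shorter core TGACG, read on either strand (CGTCA on the other one). The core is contained in the full element.
Areg, chr5:91139349-91139598, plus strand: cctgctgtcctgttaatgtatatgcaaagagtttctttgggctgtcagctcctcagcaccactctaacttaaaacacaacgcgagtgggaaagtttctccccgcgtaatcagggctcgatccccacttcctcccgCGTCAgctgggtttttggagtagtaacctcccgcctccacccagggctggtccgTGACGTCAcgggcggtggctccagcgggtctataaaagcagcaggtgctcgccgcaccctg
Btc, chr5:91402995-91403244, minus strand: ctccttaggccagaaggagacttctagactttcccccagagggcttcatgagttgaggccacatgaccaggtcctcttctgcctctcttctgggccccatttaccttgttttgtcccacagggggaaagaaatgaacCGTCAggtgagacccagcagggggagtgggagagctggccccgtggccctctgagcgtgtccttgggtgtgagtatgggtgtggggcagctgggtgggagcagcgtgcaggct
In Areg the full CRE starts 61 bases before the gene's start and a further core starts at 115 bases, and the letters TATAAA start at 31 bases. Of 32851 promoters of this length, 508 (1.55%) hold the full CRE, 17.8% hold the core and 12.4% hold TATAAA, on either strand. In Btc a core starts 113 bases before the start. The full CRE is not in the Btc or Tgfa window, and none of the 3 windows holds the AP-1 letters TGANTCA, which 6.75% of promoters hold. These matches describe the letters of the windows alone.

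Ereg, the gene of epiregulin, had the largest change among the members and was lower at day 14. Its CPM in the 4 day 4 libraries were 49.7, 54.6, 17.7 and 13, and in the 5 day 14 libraries 2.63, 4.27, 3.66, 5.71 and 5.71. Every day 14 library was below every day 4 library. The means were 33.8 ± 21.4 CPM (SD, n = 4) and 4.39 ± 1.34 CPM (n = 5), a 7.78-fold lower level (log2 fold change -2.96 ± 0.46 SE, 95% confidence interval -4 to -1.92, adjusted p = 0.00121, edgeR). In size this was rank 39 of the 2150 genes called lower. Raw counts of Ereg were 762 to 1489 per library at day 4 and 88 to 130 at day 14.

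The day 4 libraries fell into 2 levels for Ereg that go with depth: the 2 shallower libraries were at 49.7 and 54.6 CPM and the 2 deeper ones at 17.7 and 13 CPM. Among the 6 shallower libraries the log2 fold change was -3.42 ± 0.18 (adjusted p = 8.57e-06). The deeper libraries include 1 of day 14, at 2.63 CPM of Ereg, so no test within that depth is given for any member. Nrg1, Btc, Hbegf and Areg were likewise higher in both shallower day 4 libraries than in the 2 deeper ones, though for Nrg1, Hbegf and Areg the nearest libraries of the 2 depths lay close together, and Tgfa was not so ordered. With log10 library size as covariate over all 9 libraries, the log2 fold change was -3.44 ± 0.21 for Ereg, -2.36 ± 0.26 for Nrg1 and 2.25 ± 0.41 for Btc. Areg and Hbegf, at 0.66 ± 0.28 and 0.88 ± 0.36, were not called in that fit. It gives the change between the days, and the part of depth in these day 4 values was itself not tested.

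Nrg1, the gene of neuregulin 1 (chromosome 8, 31807452 to 32891609), was also lower at day 14. The 4 day 4 libraries held 41.7, 33.1, 22.7 and 32.4 CPM, and those of day 14 held 4.59, 5.91, 9.48, 13.2 and 6.78 CPM. The lowest day 4 library stood above the highest day 14 library. The means of 32.5 ± 7.78 and 7.98 ± 3.41 CPM differed 4.11-fold (log2 fold change -2.04 ± 0.28, 95% confidence interval -2.65 to -1.43, adjusted p = 0.000308). The 2 depths were nearly joined at day 4, with 33.1 CPM in the lower of the shallower libraries and 32.4 CPM in the higher of the deeper ones. Nrg1 was lower at day 14 within the shallower libraries (-2.07 ± 0.29, adjusted p = 0.00233), and the deeper day 14 library was at 4.59 CPM.

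Some fibroblast transcripts moved in the same direction as Ereg and Nrg1. The summed CPM of 8 fibroblast markers ranged from 9649 to 19067 at day 4 and from 5185 to 8639 at day 14. Most of the sum came from the collagen genes Col1a1, Col1a2 and Col3a1, at 3105, 2912 and 5990 CPM on average at day 4. Of the 8 markers 4 were called lower, against 16.2% of all genes tested, and none was at 0 in all libraries. Dcn, Lum, Postn and Dpt were not called (log2 fold changes -0.39, -0.05, -0.11 and 0.23). Pdgfra, a receptor of fibroblasts, fell from 45.1 ± 19.2 to 16.2 ± 3.26 CPM (a log2 fold change of -1.48 ± 0.24, adjusted p = 0.000850). Within day 4 the highest fibroblast sum, in replicate 2, went with the highest Ereg, while replicate 1, with 49.7 CPM of Ereg, had a fibroblast sum of 11408, below the 12656 of replicate 3, with 17.7 CPM. The part of fibroblast RNA in the 2 decreases was not tested.

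Btc, the gene of betacellulin, was higher at day 14 from a very low level. It was at 0.324, 0.293, 0.177 and 0.17 CPM in the day 4 libraries, and at 1.54, 0.678, 1.16, 0.726 and 1.02 CPM in the day 14 libraries. No day 14 library fell within the day 4 range. The means of 0.241 ± 0.079 and 1.02 ± 0.35 CPM differed 4.52-fold (log2 fold change 2.17 ± 0.38, 95% confidence interval 1.36 to 2.99, adjusted p = 0.00107). Counts were 8 to 10 per library at day 4 and 15 to 76 at day 14. Btc passed the filter on low counts, which asks for 0.399 CPM in 4 libraries, only through day 14, with 5 of 5 libraries above it there and 0 of 4 at day 4. A gene that passes in this way is bound to differ between the groups. With no such filter the log2 fold change was 2.16 (adjusted p = 0.00109). In the 6 shallower libraries the difference was smaller and was not called (1.53 ± 0.49, adjusted p = 0.065). The deeper day 14 library, at 1.54 CPM, was the highest of all.

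Some markers of 2 other cell types of skin were higher at day 14 beside Btc. Of 6 tested keratinocyte markers 5 were called higher, against 15.2% of all genes tested. The sum of all 10 keratinocyte markers was 0.851 to 5.79 CPM at day 4 and 5.72 to 12.8 CPM at day 14. The most abundant keratinocyte marker, Krt14, was at 0.452 ± 0.506 and 2.34 ± 1.25 CPM. Krt17 and Trp63, at most at 0.22 and 0.257 CPM at day 4, passed the filter of 0.399 CPM only through day 14. Krt5, Krt14 and Dsp also fell below that level at day 4, to 0.0852, 0.0811 and 0.122 CPM. The calls of such genes are given as a description. Krt1, Krt6a, Krt15 and Krt16 did not pass the filter. Of 6 endothelial markers 3 were called higher, against the same 15.2%, with sums of 41.1 to 47.8 and 29 to 67.8 CPM. Pecam1, the most abundant of them, was at 22.5 ± 1.87 and 19.4 ± 4.29 CPM and was not called. Day 14 replicates 1 and 4 had the lowest keratinocyte sums of their group, 5.72 and 5.76 CPM. Btc was at 1.54 CPM, its highest, in replicate 1 and at 0.726 CPM in replicate 4. The endothelial sums of these 2 libraries were 43.8 and 34.9 CPM. The part of these cell types in the Btc values was not tested.

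Hbegf (chromosome 18, 36504927 to 36515805), the gene of a ligand that macrophages are known to make, was called higher at day 14. At day 4 the libraries held 95.3, 50.8, 36 and 43.7 CPM, while at day 14 they held 93.6, 102, 121, 229 and 82.1 CPM. The groups overlap through day 4 replicate 1, which was above 2 of the 5 day 14 libraries, and day 14 replicate 4 was far above the others of its group. The means of 56.4 ± 26.6 and 126 ± 59.6 CPM differed 2.23-fold (log2 fold change 1.16 ± 0.37, 95% confidence interval 0.31 to 2.00, adjusted p = 0.0423). The call was lost in 10 of 22 alternatives with at least 2 libraries a group. The adjusted p reached 0.329 in the 6 shallower libraries (log2 fold change 0.89), the deeper libraries held 36 and 43.7 CPM at day 4 and 93.6 CPM in the 1 of day 14, and leaving out any 1 of day 4 replicates 2, 3 or 4 or day 14 replicates 1, 2 or 4 gave an adjusted p of 0.05003 to 0.123. Without day 4 replicate 1 the log2 fold change was 1.53 (adjusted p = 0.00732).

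Areg, the gene of amphiregulin, was at the threshold. Its level was 65.1, 30.5, 24.6 and 28.8 CPM in the libraries of day 4, against 64.1, 57.5, 47.5, 95.2 and 71.6 CPM in those of day 14. As for Hbegf, day 4 replicate 1 stood in the day 14 range, and the other 3 day 4 libraries were below every day 14 library. The means of 37.3 ± 18.7 and 67.2 ± 18 CPM differed 1.81-fold (log2 fold change 0.86 ± 0.30, 95% confidence interval 0.20 to 1.51, adjusted p = 0.04997). The call was lost in 13 of 22 such alternatives, among them leaving out any 1 library other than day 4 replicate 1 and day 14 replicate 3 (adjusted p = 0.0619 to 0.140). Without day 4 replicate 1 the log2 fold change was 1.26 (adjusted p = 0.000949), and in the 6 shallower libraries, where that library is 1 of 2 of its group, it was 0.52 (adjusted p = 0.426). In the deeper libraries Areg was at 24.6 and 28.8 CPM at day 4 and at 64.1 CPM in the 1 of day 14.

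Areg is also known as a product of innate lymphoid cells, T cells and mast cells. Il7r, the most abundant marker of the lymphoid list, rose from 106 ± 35.6 to 209 ± 69.2 CPM (adjusted p = 0.0225), and Cd4, which macrophages can also express, rose from 32.5 ± 1.66 to 53.9 ± 7.5 CPM (adjusted p = 0.000268). Foxp3 of that list, at 0.669 ± 0.188 and 0.48 ± 0.121 CPM over 4 libraries each, was not called. Gata3, at 0.104 and 0.381 CPM on average, did not pass the filter. The T cell receptor subunit genes Cd3e, Cd3d and Cd3g were at 0.0262, 0.0721 and 0.0439 CPM on average at day 4 and at 0.0104, 0.0458 and 0.0834 CPM at day 14, over 4 libraries each, which is near 0. Of 4 tested mast cell markers 2 were called higher, Cpa3 from 1.11 ± 0.225 to 3.46 ± 0.899 CPM and Mcpt4 from 0.815 ± 0.463 to 2.89 ± 1.21 CPM. Tpsb2 was not called. Kit, the most abundant of the list, was called lower, from 13.6 ± 5.55 to 6.08 ± 1.18 CPM. The list sums, of which Kit is a large part, were 11.3 to 23.8 and 9.73 to 17.8 CPM. Some eosinophil and dendritic cell markers were also higher, with 2 of 3 and 5 of 8 tested members called higher, against 15.2% of all genes tested. Ccr3, the most abundant of the eosinophil list, was at 8.90 ± 1.4 and 32.5 ± 10.4 CPM over 4 libraries each. In that list Ear6 was not called, and Epx, at 0.0148 and 0.0185 CPM on average, did not pass the filter. Cd209a, the most abundant of the dendritic cell list, was at 51.9 ± 6.64 and 135 ± 20.9 CPM. Flt3, Dpp4 and Fscn1 were not called (log2 fold changes 0.08, 0.00 and -0.09). Day 4 replicate 1, where Areg and Hbegf were highest for their group, had a sum of neutrophil markers of 1678 CPM, against 610 to 717 CPM in the 3 others. At day 14 the highest such sum, 1699 CPM in replicate 3, went with the lowest Areg of that group. Hbegf in that library was at 121 CPM, below only the 229 CPM of day 14 replicate 4. The part of these cells in the Areg and Hbegf values was not tested.

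Tgfa, the gene of transforming growth factor alpha (chromosome 6, 86195038 to 86275744), did not pass the test. Day 4 libraries held 0.365, 0.44, 0.138 and 0.46 CPM, and day 14 libraries 0.606, 0.279, 0.457, 0.145 and 0.509 CPM. Counts were 3 to 30 per library, and the groups overlap over almost their whole range. The log2 fold change was 0.26 ± 0.47 (adjusted p = 0.704, edgeR). Its 95% confidence interval of -0.76 to 1.27 holds changes of either sign as well as no change.

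Per length of the longest coding transcript, Areg and Hbegf were the leading ligand genes at both times. With the longest coding transcript in GENCODE vM21 as the length, Areg (1215 bases) was at 30.7 ± 15.4 CPM per kb at day 4 and 55.3 ± 14.8 CPM per kb at day 14. Hbegf (2375 bases) was at 23.8 ± 11.2 and 52.9 ± 25.1 CPM per kb, so these neighbours in the order did not differ beyond their spread at either time. Ereg (4128 bases) followed at day 4 with 8.18 ± 5.19 CPM per kb and Nrg1 (5415 bases) with 6 ± 1.44 CPM per kb, again within their spread. At day 14 Nrg1 was at 1.47 ± 0.629 and Ereg at 1.06 ± 0.324 CPM per kb, which also overlap.

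Btc (2876 bases) and Tgfa (4527 bases) came last, with 0.0839 ± 0.0275 and 0.0775 ± 0.0326 CPM per kb at day 4. At day 14 Btc was at 0.356 ± 0.122 CPM per kb and Tgfa at 0.0882 ± 0.0409 CPM per kb, and their ranges did not overlap. The order depends on the transcript for 2 genes: with the median coding transcript, Nrg1 (12 transcripts, from 407 to 5415 bases) was at 13.4 ± 3.20 CPM per kb at day 4, above Ereg, and Tgfa at 0.142 ± 0.0598 CPM per kb, above Btc. With that length the day 4 range of Nrg1, up to 17.2 CPM per kb, reached that of Hbegf, which began at 15.1. The day 14 range of Tgfa, up to 0.246 CPM per kb, likewise reached that of Btc, which began at 0.236. Which transcripts the cells made cannot be read from gene totals.

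**Figure D2:**
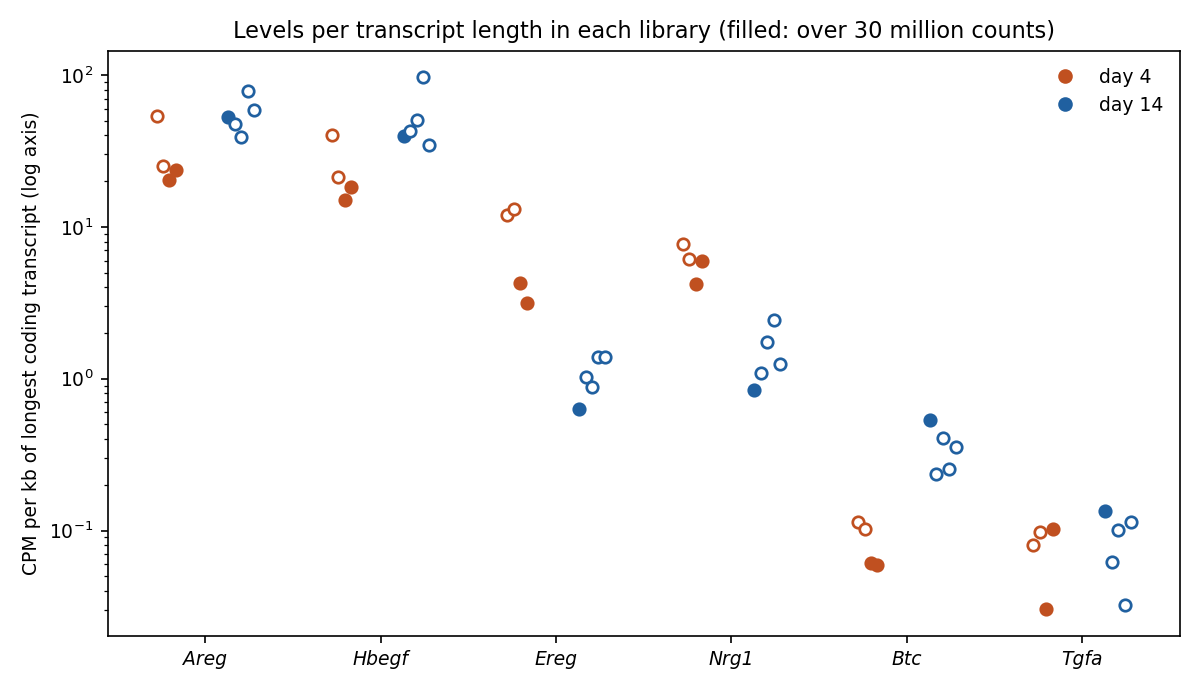
CPM per kb of the longest coding transcript (log axis) of the 6 ligand genes in each library, day 4 beside day 14. Filled points are the 3 deeper libraries. Areg and Hbegf lie highest at both times, Ereg and Nrg1 drop from the middle of the plot, and Btc and Tgfa lie below 1 CPM per kb throughout.

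The balance between the ligand transcripts was read as the ratio of counts within a library, which needs no scaling between libraries. Ereg counts were 0.451 to 1.79 times Areg counts at day 4 and 0.041 to 0.0797 times at day 14. Relative to Hbegf, Ereg counts were 0.297 to 1.08 times at day 4 and 0.0249 to 0.0695 times at day 14. For neither ratio did the groups overlap, and the mean log2 ratio differed by -3.66 and -3.89. This is a description of genes chosen with their changes known.

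Nrg1 gave the same picture, with 0.641 to 1.13 times the Areg counts at day 4 and 0.0715 to 0.199 times at day 14, and 0.438 to 0.742 and 0.049 to 0.0826 times the Hbegf counts. The ratios within each pair that moved together overlapped between the days. Ereg counts were 0.4 to 1.65 times Nrg1 counts at day 4 and 0.386 to 0.842 times at day 14. Areg counts were 0.601 to 0.684 times Hbegf counts at day 4, a narrow range that held also in replicate 1, where both genes were high, and 0.393 to 0.873 times at day 14.

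**Figure D3:**
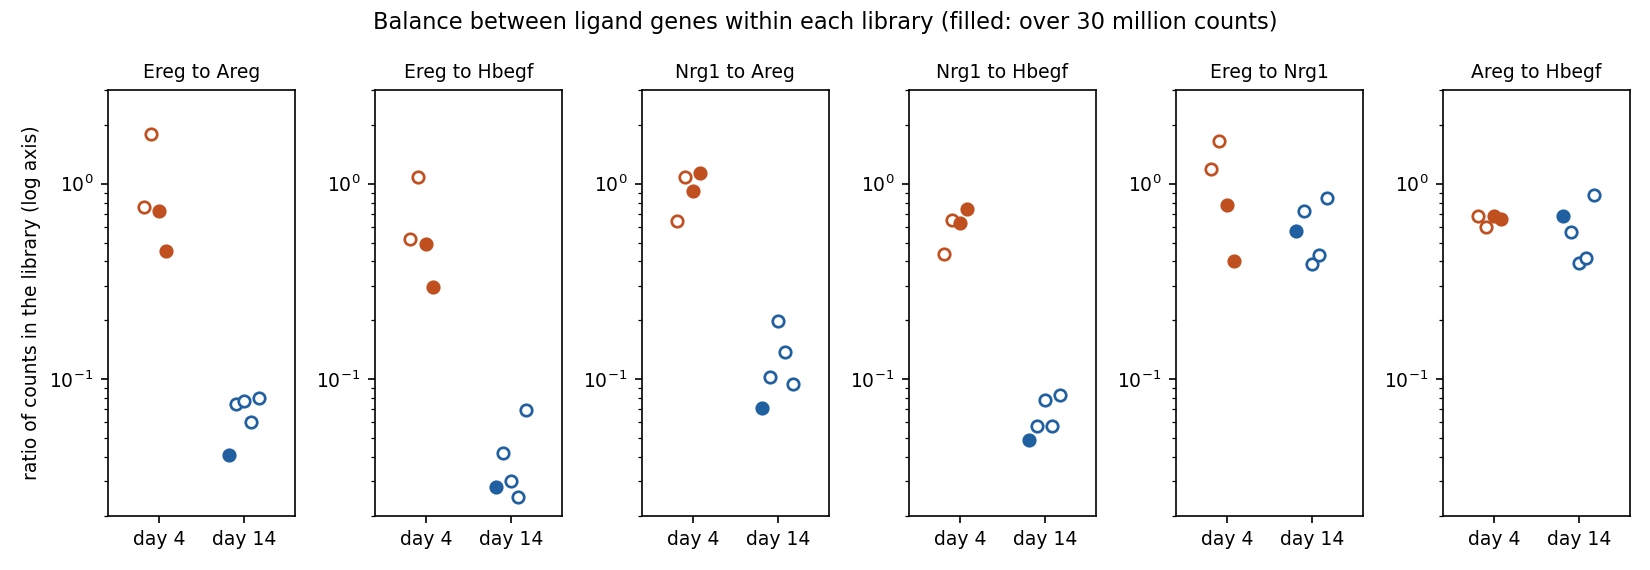
Ratio of the counts of 2 ligand genes within each library (log axes), day 4 and day 14. Filled points are the 3 deeper libraries. The 4 ratios of Ereg or Nrg1 to Areg or Hbegf separate by day, whereas Ereg to Nrg1 and Areg to Hbegf overlap.

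The genes most like each member were taken by the root mean square (RMS) difference of log2 CPM over the 9 libraries, each gene centred on its own mean, among about 8738 tested genes of at least 5 CPM. For Ereg these were Aldh1l2, a mitochondrial folate enzyme (0.46), Tnc, the matrix protein tenascin C (0.53), and Bcat1, an enzyme of branched-chain amino acids (0.53). Tnc went from 297 ± 104 to 57.5 ± 17.1 CPM. For Nrg1 they were Rai14 (0.32), Vcan, the matrix proteoglycan versican (0.35), and Acp5, tartrate-resistant acid phosphatase (0.38). Vcan went from 410 ± 38.9 to 127 ± 36.7 CPM. Nrg1 stood at rank 20 in likeness to Ereg (0.68).

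Areg was most like Flrt3 (0.20), Mmp12, macrophage elastase (0.21), and Mmp19, another metalloproteinase (0.22). Mmp12 was at 222 ± 89.1 and 348 ± 72.9 CPM. Hbegf was most like Ccl7 (0.26) and Ccl2 (0.35), chemokines that attract monocytes, and then Areg (0.35), whereas Hbegf was at rank 35 in likeness to Areg. Ccl7 was at 437 ± 129 and 891 ± 405 CPM. Ereg stood at rank 8714 of 8738 in likeness to Areg, its neighbour on chromosome 5 (1.89).

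Btc was most like Selp and Sele, the genes of P-selectin and E-selectin, adhesion proteins of activated endothelium (both 0.33), and Lrrc32, which anchors latent TGF-beta (0.36). Selp was at 8.27 ± 2.68 and 32.5 ± 11.6 CPM and Sele at 3.8 ± 0.727 and 15.2 ± 5.54 CPM. The genes nearest to Tgfa were Ttc28 and Pilrb2 (both 0.45) and Pigv (0.46). These are likenesses over 9 libraries in 2 groups and so include the difference between the days.

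Of 58 tested genes in 6 lists around the ligands, 7 were called higher and 14 lower at day 14, 36.2% in all against the 31.3% of all genes. Their median log2 fold change was -0.10. Without day 14 replicate 2, 9 were called lower, and without day 4 replicate 4, 4 were called higher.

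Of the other EGF family ligands, 3 of 5 were tested. Nrg2, the gene of neuregulin 2, rose from 0.297 ± 0.125 CPM at day 4 to 1.48 ± 0.438 CPM (a log2 fold change of 2.24 ± 0.35, adjusted p = 0.000592), in the opposite direction to Nrg1. Like Btc it passed the filter only through day 14, with 1 of 4 day 4 and 5 of 5 day 14 libraries above 0.399 CPM. Nrg4 fell from 3.14 ± 0.581 to 1.78 ± 0.323 CPM over 4 libraries each (a log2 fold change of -0.80 ± 0.22, adjusted p = 0.0194). Egf itself was at 0.416 ± 0.0299 and 0.297 ± 0.152 CPM and was not called (adjusted p = 0.473). Epgn, at 0.293 ± 0.159 and 0.149 ± 0.0641 CPM, and Nrg3, with a mean of 0 and 0.00404 CPM, did not pass the filter on low counts.

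Among the receptors, Egfr stood at 27.5, 38.8, 28 and 34.3 CPM at day 4 and at 28.7, 23, 24.4, 24.6 and 26.9 CPM at day 14. The groups overlap, with means of 32.1 ± 5.42 and 25.5 ± 2.28 CPM. Egfr was called lower (log2 fold change -0.33 ± 0.12, adjusted p = 0.0461), a call kept in 7 of 22 alternatives. Erbb2, the shared partner receptor, was at 1.25 ± 0.280 and 0.887 ± 0.512 CPM and Erbb3, which binds neuregulins, at 1.73 ± 1 and 2.32 ± 0.395 CPM, and neither was called. Erbb4 was not analysed here.

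Of 13 genes of ligand release, 2 were called higher and 2 lower, with a median log2 fold change of -0.08. Adam17, the main protease for Areg, Ereg, Hbegf and Tgfa precursors, was at 342 ± 33.4 and 287 ± 26.6 CPM (adjusted p = 0.0589). Adam10, which cuts the Btc precursor, was at 310 ± 28.6 and 270 ± 30.6 CPM over 4 libraries each and was not called. Adam12, a protease known to cut the Hbegf precursor, fell from 52.9 ± 25.6 to 20.9 ± 3.8 CPM (a log2 fold change of -1.34 ± 0.26, adjusted p = 0.00299). Its direction was that of the fibroblast markers that were called.

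Adam9 fell from 463 ± 14 to 383 ± 29.3 CPM (adjusted p = 0.0216), a call kept in 14 of 22 alternatives. Adam19, a protease known to process neuregulin precursors, rose from 99.5 ± 15.3 to 147 ± 4.82 CPM (adjusted p = 0.00130). Timp3, an inhibitor of Adam17, rose from 18.6 ± 6.46 to 30.9 ± 6.97 CPM (adjusted p = 0.0229). Adam8, the most abundant gene of the list, was at 659 ± 135 and 625 ± 61.2 CPM and was not called.

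Of 15 genes from receptor to ERK, 1 was called higher and 4 lower, with a median log2 fold change of -0.02. Gab1, a docking protein of EGF receptor signalling, fell from 181 ± 11.9 to 95.9 ± 7.27 CPM (a log2 fold change of -0.91 ± 0.08, adjusted p = 9.04e-06), and its relative Gab2 fell from 197 ± 12.3 to 146 ± 8.93 CPM (adjusted p = 0.00129). The MEK kinase genes also fell, Map2k1 from 157 ± 16.4 to 122 ± 6.51 CPM over 4 libraries each and Map2k2 from 61.5 ± 8.49 to 48.2 ± 7.13 CPM (adjusted p = 0.0198 and 0.0414). Sos2, an activator of RAS, rose from 71.2 ± 3.42 to 83.2 ± 4.58 CPM (adjusted p = 0.0308). The calls of Map2k1, Map2k2 and Sos2 were lost in 5, 11 and 8 of 22 alternatives.

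Of 17 inhibitors of the receptors and of ERK, 3 were called higher and 4 lower, with a median of -0.12. Dusp4, a phosphatase that inactivates ERK, fell from 21.8 ± 4.86 to 8.96 ± 1.58 CPM (a log2 fold change of -1.27 ± 0.16, adjusted p = 0.000145). Spry2, a feedback inhibitor of receptor tyrosine kinase signalling, fell from 21.4 ± 5.40 to 11.9 ± 0.533 CPM (adjusted p = 0.00106). Lrig1, which promotes loss of ErbB receptors, fell from 8.07 ± 2.79 to 3.54 ± 1.26 CPM (adjusted p = 0.00637), and Rnf41, a ubiquitin ligase for Erbb3, from 53 ± 5.33 to 41.6 ± 5.69 CPM (adjusted p = 0.0281). In the other direction, Dusp6, another ERK phosphatase, rose from 76.3 ± 18.3 to 112 ± 12 CPM (adjusted p = 0.0133), Spred1 from 196 ± 12.5 to 278 ± 35.9 CPM (adjusted p = 0.00305) and Lrig2 from 24.8 ± 2.52 to 31.1 ± 3.52 CPM (adjusted p = 0.0339). Errfi1, a direct inhibitor of the EGF receptor and the most abundant of the list, was at 483 ± 167 and 374 ± 59.8 CPM and was not called.

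Of 7 tested early response genes of ERK, 2 were called lower, and the median was -0.07. Fosl1, an AP-1 subunit, fell from 24.1 ± 8.10 to 9.39 ± 2.16 CPM (a log2 fold change of -1.36 ± 0.22, adjusted p = 0.000642). Ier3 fell from 768 ± 110 to 432 ± 111 CPM (adjusted p = 0.00320). Fos was at 1531 ± 331 and 1460 ± 272 CPM and Egr1 at 371 ± 71.7 and 452 ± 134 CPM, and neither was called. All of these are RNA levels of cells that had been digested out of the tissue and sorted, and no ligand protein or receptor activity was measured.

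**Figure D4:**
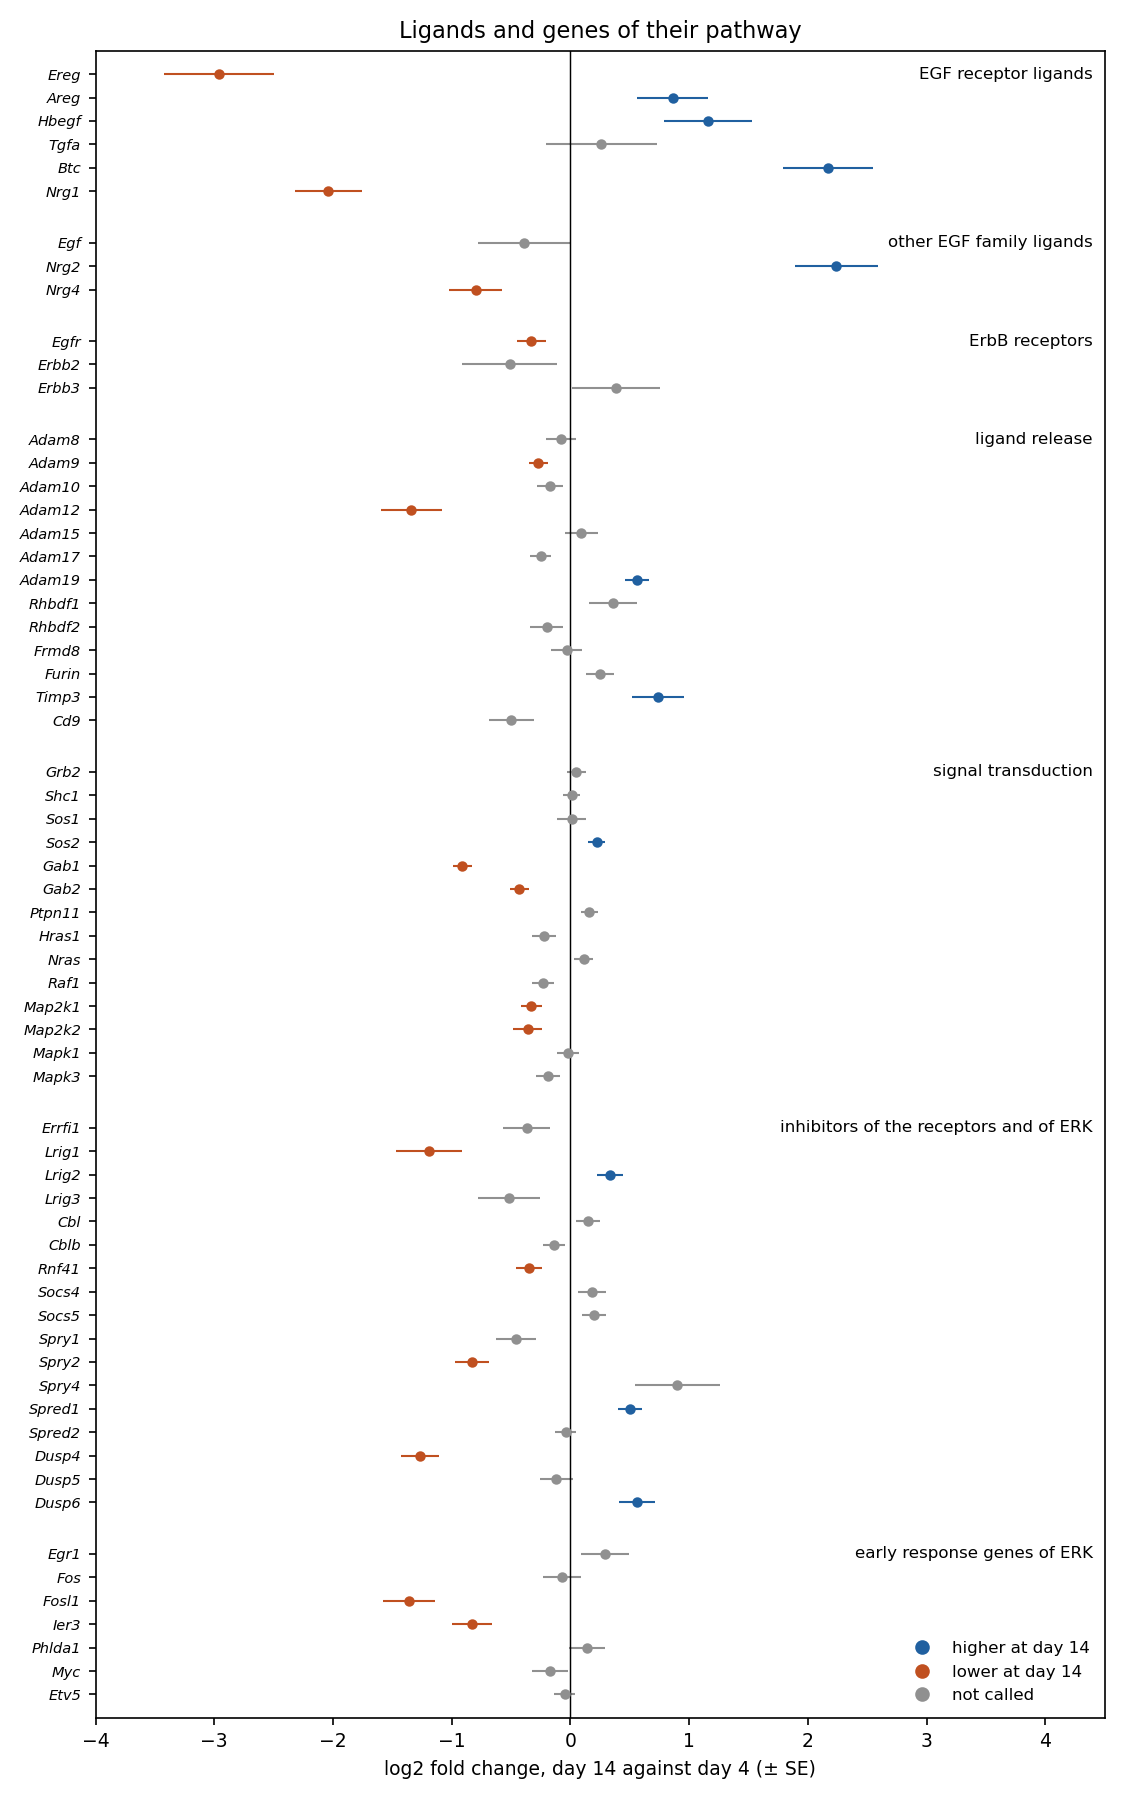
Log2 fold change of day 14 against day 4 with its SE for the 6 ligand genes and tested genes of the 6 pathway lists, coloured by call. The ligands Ereg, Nrg1, Btc and Nrg2 lie more than 2 log2 units from 0, while the other pathway genes shown lie within 1.5.

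The 5 called ligand genes differed in how many alternatives kept the call. Over the 22 alternatives of scaling, test, filter and libraries with at least 2 libraries a group, Ereg ranged from -3.44 to -2.60 in log2 fold change and Nrg1 from -2.36 to -1.88, and both were called in every one. Btc ranged from 1.53 to 2.33 and was called in 20 of 21, Hbegf from 0.83 to 1.53 and was called in 12 of 22, and Areg from 0.52 to 1.26 and was called in 9 of 22. None of these turned the direction of these 5. Of the other pathway genes, Rnf41, Lrig2 and Timp3 lost their calls in 7, 6 and 5 of 22 alternatives and Nrg4 in 4 of 21, while Nrg2 kept its call in all 21 and Gab1, Dusp4, Spry2, Adam12, Adam19, Fosl1 and Ier3 kept theirs in all 22. Tgfa ranged from -0.21 to 0.49 and was called in 0 of 21, with an adjusted p of at least 0.495. Btc and Nrg2 passed the filter on low counts only through day 14. Their numbers of calls therefore do not measure how firm their differences are.

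**Figure D5:**
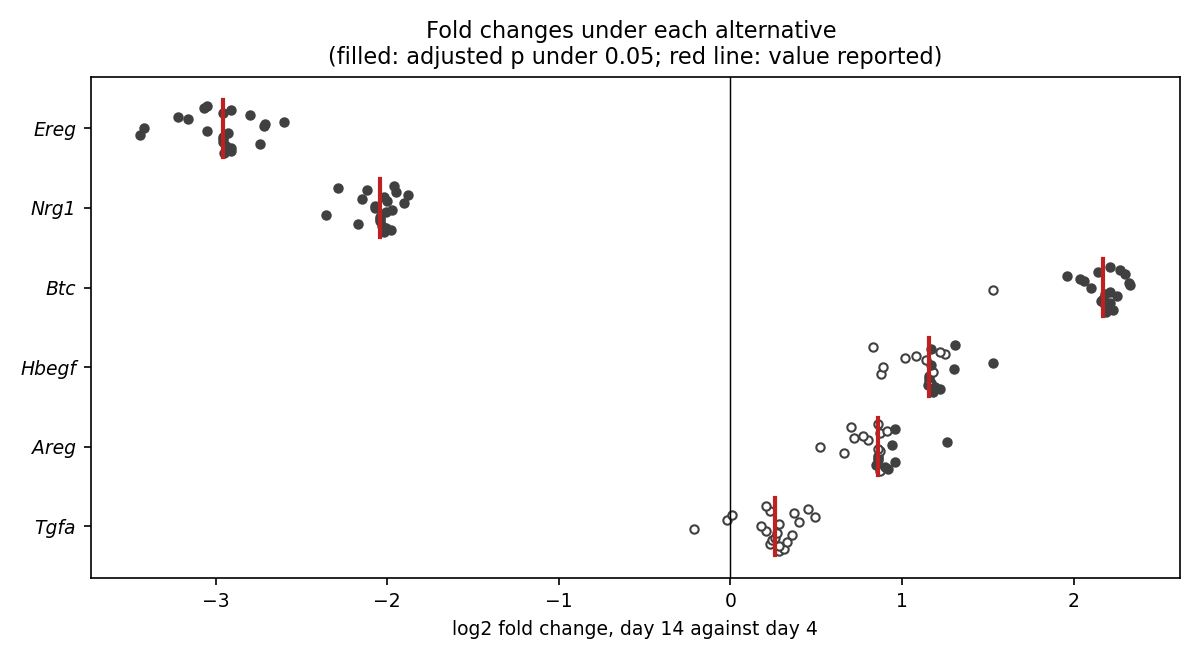
Log2 fold change of each ligand gene (day 14 against day 4) under each alternative with at least 2 libraries a group, 1 point each, filled where the adjusted p was under 0.05. The red line is the value reported. All points of Ereg and Nrg1 are filled and far from 0, and many points of Hbegf and Areg are open.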

How the data were processed

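Macrophages sorted from skin wounds were measured by RNA-seq in 9 libraries. Per the labels' protocols, libraries were made with the TruSeq RNA kit v2, which does not mark strand, and sequenced as paired ends. The submitters' processing notes name CASAVA 1.8, HISAT2 2.1.0, SAMtools 1.4, Partek 6.6, DESeq2 and the build mm10, without a role for each. The authors deposited estimated counts for 18303 gene symbols, not normalized, of which a mean of 17.2% per library were not whole. These were rounded. The authors also deposited a normalized signal for 13673 genes, used in 1 alternative.

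By symbol, 17103 genes matched RefSeq on GRCm38.p6, 1097 matched by an older name and 103 did not. Counts were scaled with TMM, filtered with filterByExpr and tested with edgeR 4.0.16 in R 4.3.3 (glmQLFit with robust dispersion, glmQLFTest, two-sided), with Benjamini-Hochberg adjustment over 13296 genes and a threshold of 0.05. The 1504 genes whose counts day 14 replicate 5 lacks were fitted on the 8 other libraries, and scaling factors came from the remaining genes. Standard errors were derived from the F statistic. Sums of marker lists leave those genes out. The fit was tested on simulated data. Depth, 17982633 to 57809918 counts per library, limits the precision of Btc and Tgfa most. As alternatives, scaling by RLE, by the upper quartile and by total counts was tried, and also DESeq2 1.42.0, limma-voom (limma 3.58.1), no filter, a filter of 5 CPM in 4 libraries, log10 library size as covariate, a dispersion that was not robust, all genes fitted together on 9 or 8 libraries, the 6 shallower libraries, limma on the authors' normalized values, leaving out each library, and, chosen after seeing the data, the 3 deeper libraries, which hold 1 library of day 14 and are left out of the counts of alternatives. Log2 CPM for likeness used a prior count of 2.

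The members and lists were chosen with earlier results of these data known. Named genes are all members, every called gene of a pathway list (at most 5 in a direction), the most abundant gene of each list and the 3 genes most like each member, predicted genes left out. Other genes named were chosen after their values were seen. Some genes that this rule or the marker lists hold are not reported here.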

Additional observations from a re-analysis of the deposited data

Results flagged for a closer look

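Among 27 named genes, 54 groups of 4 or 5 libraries were searched for a library standing apart from the others of its group, of which chance would pick about 1 in 20, and 3 were found. Areg in day 4 replicate 1 was at 65.1 CPM, with the 3 others at 24.6 to 30.5 CPM. Hbegf in day 14 replicate 4 was at 229 CPM, with the 4 others at 82.1 to 121 CPM. Timp3 in day 4 replicate 2 was at 28.2 CPM, with the 3 others at 14.4 to 16.4 CPM.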

How the results depend on the processing

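No paired analysis was possible because the labels carry no replicate numbers shared between the days. The decreases of Ereg and Nrg1, and the 4 count ratios of Ereg or Nrg1 to Areg or Hbegf, kept their direction under each alternative run for them. The call of Areg was lost with RLE scaling (log2 fold change 0.87) and with all genes fitted on 8 libraries (0.86). With no low-count filter, Areg (0.86) and Hbegf (1.16) lost their calls, as they did with library size as covariate (0.66 and 0.88) and with all genes fitted on 9 libraries (0.87 and 1.18, with 9 pathway genes called lower). With the 6 shallower libraries alone, calls dropped from 2018 to 1079 genes higher and from 2150 to 1004 genes lower, with 4 pathway genes higher and 9 lower, and Areg (0.52), Hbegf (0.89) and Btc (1.53) were not called. There Tgfa turned to -0.21. Leaving out each library gave 0.70 to 1.26 for Areg, 0.83 to 1.53 for Hbegf, -0.02 (without day 4 replicate 3) to 0.49 for Tgfa, 4 to 8 pathway genes higher and 9 to 16 lower. The causes were not tested, except that fewer libraries enter some of these fits. The 5 CPM filter left no value for Btc and Tgfa. Depth limits Btc and Tgfa, with 3 to 76 counts per library.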
